A study of Drosophila melanogaster with 3 samples.

Results

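At the Drosophila gene tara (taranis, FBgn0040071), B-H1-eGFP occupancy formed 6 regions that were found in all 3 embryo samples, 3 of them upstream of the gene and 3 in its introns. Of these 6, 3 were in the authors' thresholded peak list of every sample and 3 were in none of those lists. The set described here holds every deposited peak whose summit lay in the tara gene or within 10 kb of it, on chr3R:16215651-16270329 (dm6). It came to 33, 100 and 45 ranked peaks in replicates 1, 2 and 3, of 101546, 97966 and 72939 ranked peaks on the 6 chromosome arms. Of these, 8, 11 and 10 passed the authors' reproducibility threshold or an equal value in the ranked list, and they merged into 13 regions of 4229 on the arms. The locus was chosen by the number and signal of its peaks in earlier results of these data, so both are given as a description with no test.

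Chromatin immunoprecipitation and sequencing (ChIP-seq) was done on whole embryos of a transgenic strain expressing B-H1 fused to enhanced green fluorescent protein (eGFP). The source label gives an age of 8 to 24 hours. The description names an antibody against GFP, while the antibody label reads B-H1. All 3 biological replicates belong to 1 group, and the control experiment that the labels name was not analysed here. An embryo of this age holds nearly every tissue, so a peak is a sum over cell types, and many cells with little binding cannot be told apart from few cells with much. The fusion comes from a transgene, and the labels do not say whether the strain also carries unaltered B-H1.

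B-H1 (BarH1) belongs to the Bar class of homeodomain transcription factors, a family known for roles in sensory organs, the eye, the distal leg and neurons. Homeodomain proteins as a class bind short AT-rich sites, often with a TAAT core. The gene tara encodes a nuclear transcriptional coregulator with a SERTA domain, a motif shared with the mammalian TRIP-Br proteins, and was placed in the trithorax group, whose members keep genes active. In the fly it is known for promoting sleep together with Cyclin A and for keeping cell fate stable in the regenerating wing disc.

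The gene lies on the plus strand at chr3R:16225651-16260329 and spans 34.7 kb. Its transcripts start at 2 places. The first, of tara-RA, is at position 16225651, and the second, of tara-RB, lies 17165 bp downstream. Regions are numbered I to XIII from left to right along the window. The 6 found in all replicates are I, II and III, which lay upstream of both starts in intergenic sequence, IV and VII in the long intron of tara-RA upstream of the tara-RB start, and IX in the intron that both transcripts share. The noncoding gene lncRNA:CR45643, on the plus strand at chr3R:16223395-16223854, lay between regions II and III. The summit of region II lay upstream of the start of this noncoding gene and within 1 kb of it.

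Of the 6 regions found in every replicate, the 4 of highest signal are shown as 200 bp centred on the summit, plus strand of Release 6 of the genome (RefSeq), because they carry most of the signal at the locus. Region II is chr3R:16222406-16222605, region III is chr3R:16224404-16224603, region VII is chr3R:16236898-16237097 and region IX is chr3R:16247715-16247914. No window overlapped an exon. Capitals mark matches to TAATTG or GAGAGA on either strand, of which the reverse complements read CAATTA and TCTCTC.
Region II: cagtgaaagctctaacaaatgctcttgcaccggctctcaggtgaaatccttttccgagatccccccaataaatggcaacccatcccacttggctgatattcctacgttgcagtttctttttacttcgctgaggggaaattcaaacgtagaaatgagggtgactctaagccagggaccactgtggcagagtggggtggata
Region III: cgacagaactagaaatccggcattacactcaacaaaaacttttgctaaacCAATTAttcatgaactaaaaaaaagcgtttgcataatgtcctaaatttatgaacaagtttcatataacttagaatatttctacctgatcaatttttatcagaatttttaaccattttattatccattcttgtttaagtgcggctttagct
Region VII: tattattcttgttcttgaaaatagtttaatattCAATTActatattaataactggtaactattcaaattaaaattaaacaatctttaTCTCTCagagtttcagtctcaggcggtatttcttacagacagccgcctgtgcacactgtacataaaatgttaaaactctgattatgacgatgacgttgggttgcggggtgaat
Region IX: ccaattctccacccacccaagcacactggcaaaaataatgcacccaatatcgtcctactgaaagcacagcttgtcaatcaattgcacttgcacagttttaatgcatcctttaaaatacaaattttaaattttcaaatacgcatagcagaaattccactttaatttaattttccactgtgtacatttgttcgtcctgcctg

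Region II, at chr3R:16222374-16222621, was the highest peak of the locus in each replicate. Its summit lay 3145 bp upstream of the tara-RA start and moved by 11 bp over the replicates. Peak signal, as deposited by the authors, has no stated scale and is read only within a list. It was 420, 560 and 485 in replicates 1, 2 and 3, where the median passing peak had 63.5, 68.1 and 62.8. Region II ranked 21st of 2039, 16th of 3721 and 15th of 2263 passing peaks on the arms. Its percentile, the share of the replicate's passing peaks with a signal no higher, was 99.33 ± 0.292 (SD, n = 3).

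Regions III and VII came next, and their order was not fixed. Region III, at chr3R:16224400-16224612, is the one nearest to the tara-RA start, with a summit 1147 bp upstream of it. Its signal was 173, 345 and 175, at percentiles of 91.81, 98.07 and 92.62, so that its own percentile was highest in replicate 2, still below that of II. Region VII, at chr3R:16236878-16237066, lay 11347 bp into the gene, in the intron of tara-RA, and had a signal of 226, 273 and 208. VII was higher than III in replicates 1 and 3 and lower in replicate 2. The percentiles, 94.17 ± 3.40 for III and 95.70 ± 0.938 for VII (SD, n = 3), overlapped between the replicates. Summits moved by 7 bp in III and by 16 bp in VII.

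Regions II, III and VII shared other properties. Each had the highest −log10 global IDR that the lists hold, 5.0, in every replicate. The irreproducible discovery rate (IDR) is a measure of how well a peak's rank repeats. Region VI also reached 5.0 in replicate 1 and region IX in replicate 3. Regions II, III and VII were also narrower than the 300 bp of most peaks, from 145 bp for III in replicate 1 to 248 bp for II in replicate 3. On the arms, 15.7%, 16.4% and 16.8% of the passing peaks of replicates 1, 2 and 3 were narrower than 300 bp. The 3 highest peaks held 70.6%, 67.6% and 69.2% of the passing signal at tara.

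Region IX, at chr3R:16247621-16247921, was the fourth in every replicate among the regions that all replicates share. It lay 4999 bp downstream of the tara-RB start, in the intron of both transcripts. The signal was 77.7, 134 and 95.8, and the percentile 74.89 ± 10.8 (SD, n = 3), with every percentile below those of II, III and VII. In replicate 2 the peak was 88 bp wide, against 300 bp in the others.

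Regions I and IV were weak in comparison. Region I, at chr3R:16221685-16222186, had its replicate 1 summit 507 bp from that of II, and its signal was 58.8, 60.8 and 38.8. In replicate 3 it was made of 2 overlapping peaks, and its summit moved by 164 bp over the replicates. Region IV, at chr3R:16231834-16232199 in the intron of tara-RA, had 49.6, 49.4 and 53.2. The percentiles of 31.73 ± 18.3 for I and 28.03 ± 9.41 for IV (SD, n = 3) overlapped, and IV was above I in replicate 3 only. II exceeded I by 9.62 ± 2.71 times and IV by 9.64 ± 1.5 times in the same sample. The corresponding ratios were 2.08 ± 0.237 to VII, 2.28 ± 0.588 to III and 4.89 ± 0.622 to IX (SD, n = 3 each).

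**Figure D1:**
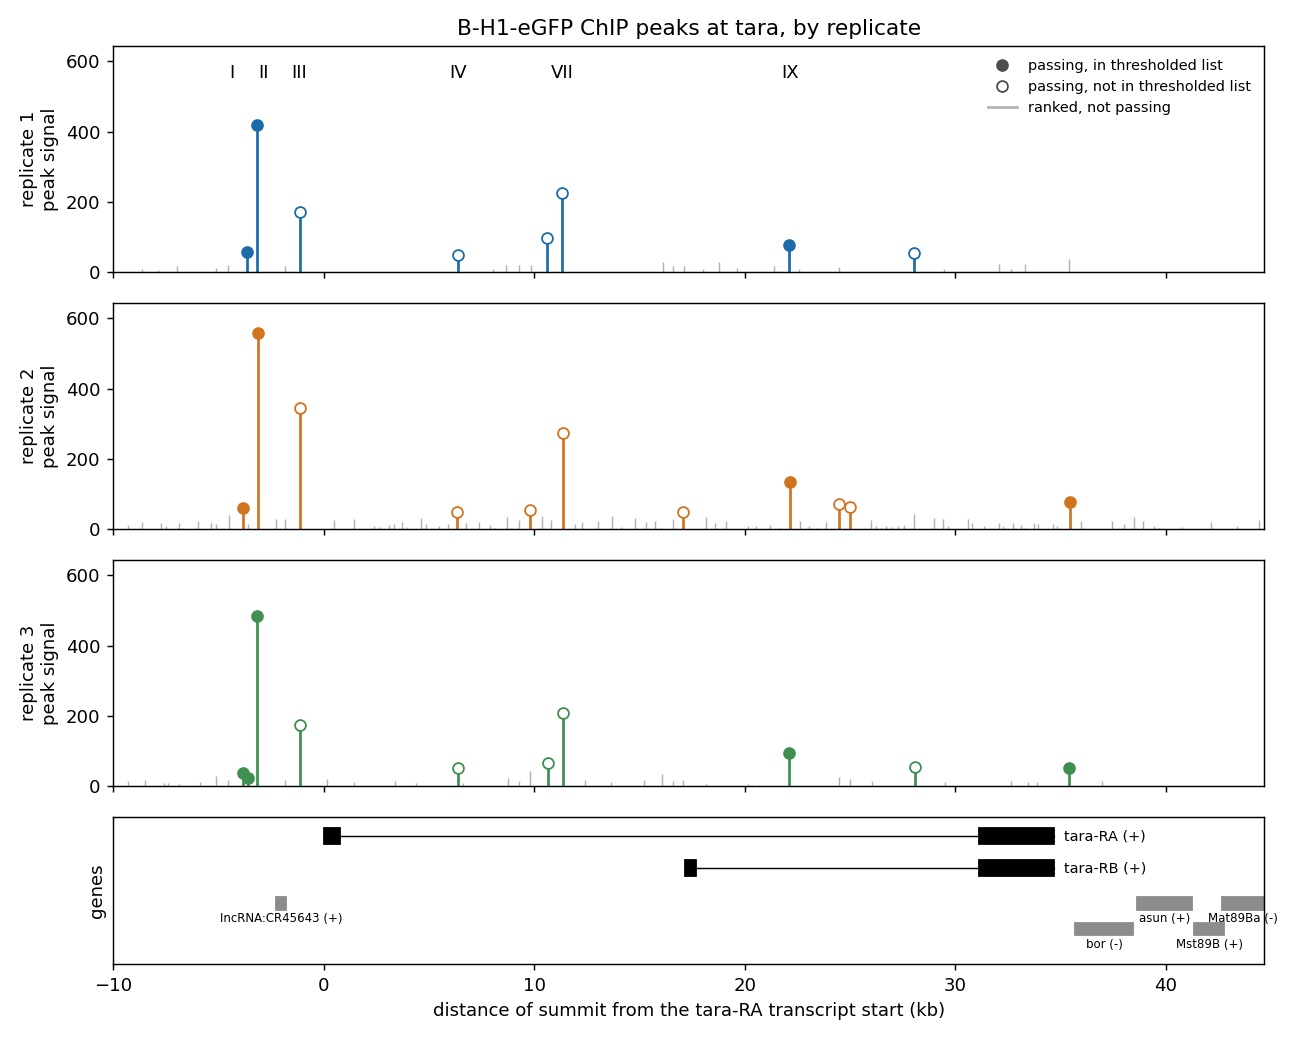
Peaks at tara in replicates 1 to 3 (rows), by distance of the summit from the tara-RA start (horizontal axis, kb) and peak signal in the units of the deposited lists (vertical axis), over the gene models; circles mark passing peaks, filled where the thresholded list holds them. Regions II, III and VII stand above the rest in each replicate, at 420, 560 and 485 for II.

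**Figure D2:**
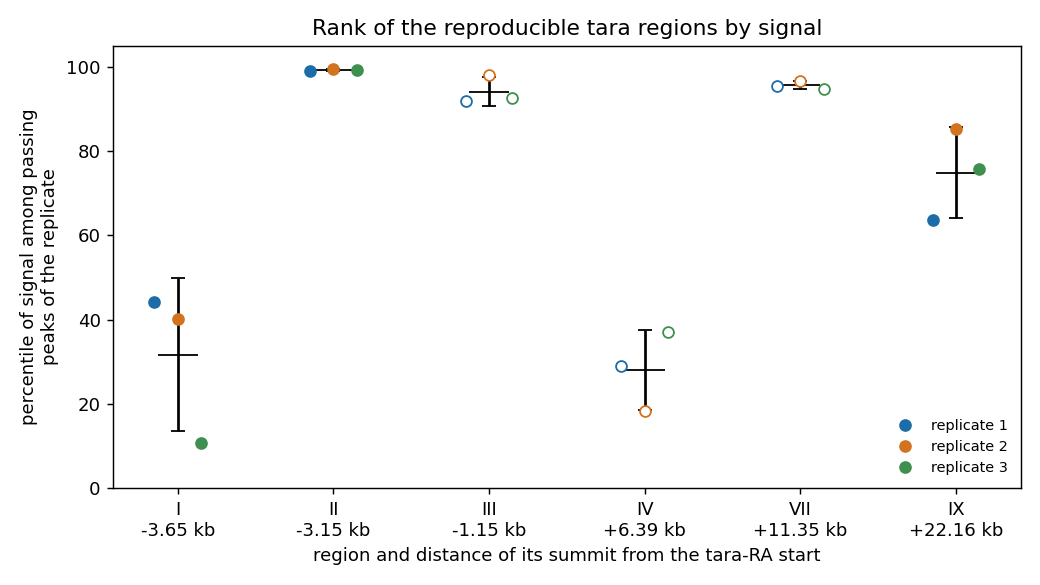
Percentile of signal among the replicate's passing peaks on the arms (vertical axis) for the 6 regions found in every replicate (horizontal axis); points are replicates, open where the thresholded list lacks the peak, and bars give the mean and SD (n = 3). Regions II, III and VII lie above 90 in each replicate, and I and IV below 50.

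The other 7 regions passed in part of the replicates. Regions VI, XII and XIII passed in 2 of them. VI, in the intron of tara-RA 10605 bp from its start, had a signal of 99.2 and 67.5 in replicates 1 and 3 and a peak of 38.0 that did not pass in replicate 2. XII, 28082 bp from that start, passed at 55.3 and 56.6 in replicates 1 and 3 and had 45.2 in replicate 2. XIII, at chr3R:16260920-16261240, lay between the 3′ end of tara and the gene bor. It passed at 78.6 and 51.4 in replicates 2 and 3 and had 36.8 in replicate 1. In each of these a ranked peak below the threshold overlapped the region in the remaining replicate.

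Regions V, VIII, X and XI passed in replicate 2 alone, the sample with the longest list of passing peaks. VIII is the one closest to a transcript start of tara, with a summit 102 bp upstream of that of tara-RB. It had a signal of 50.2 in replicate 2 and of 17 and 18.1 in replicates 1 and 3. V had 54.5 in replicate 2, and 21.7 and 44.3 in replicates 1 and 3. X had 73.4 in replicate 2, and 15.2 and 25.8 in replicates 1 and 3. XI had 63.4 in replicate 2 and 19.9 in replicate 3, with no ranked peak overlapping it in replicate 1. Signals of different replicates stand in separate lists and are not compared. The −log10 IDR in replicates 1, 2 and 3 was 0.05, 2.41 and 0.75 for V and 0.24, 3.47 and 0.49 for X. No region with a passing peak in every replicate lay within 1 kb of a tara transcript start.

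Passing peaks made up 24.2%, 11.0% and 22.2% of the ranked peaks at tara in replicates 1, 2 and 3. On the arms the share was 2.01%, 3.80% and 3.10%. The mean number passing at tara was 9.67 ± 1.53 (SD, n = 3). These held 0.606% ± 0.0846 of the passing signal and were 0.377% ± 0.0742 of the passing peaks (SD, n = 3 each). Of the merged regions at tara, 46.2% were found in all 3 replicates, where 33.3% of those on the arms were. Since the locus was picked for its peaks, nothing is read from these shares.

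The passing and the failing peaks lie apart on the −log10 IDR scale by definition, since every passing peak has 2 or more. The passing peak of lowest −log10 IDR had 2.92, 2.38 and 2.05 in replicates 1, 2 and 3, and the failing one of highest value had 1.42, 1.59 and 0.75. The signal did not order them the same way in replicate 3. There the lowest passing peak, part of region I, had a signal of 22.8, and the failing peak of region V had 44.3.

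**Figure D3:**
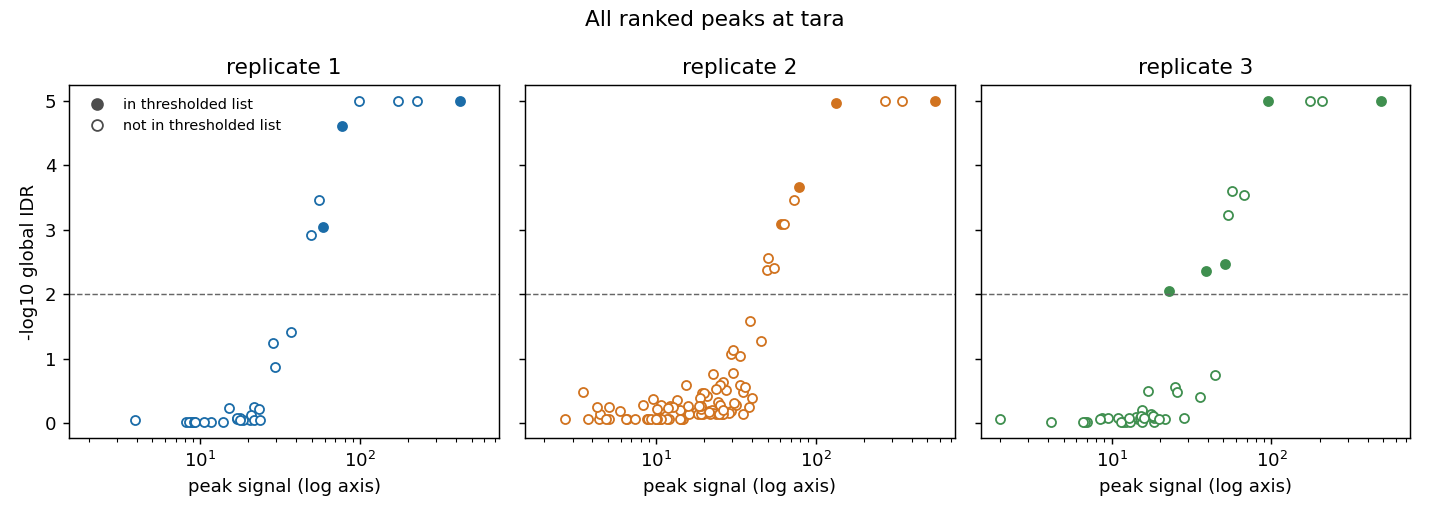
Signal (horizontal log axis) and −log10 global IDR (vertical axis) of every ranked peak at tara in replicates 1 to 3; the dashed line is the threshold of 2, and filled points are in the thresholded list. Open points above the line are the 5, 7 and 5 peaks that passed without being listed.

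Many of the passing peaks were missing from the authors' thresholded lists. Of the 29 passing peaks at tara, 12 were listed and 17 were not. By replicate, the unlisted peaks numbered 5 of 8 in replicate 1, 7 of 11 in replicate 2 and 5 of 10 in replicate 3. On the arms 3.33%, 3.01% and 2.83% of the passing peaks were unlisted. On 3R, the arm that holds tara, the shares were 7.01%, 7.94% and 6.60%, and 33 of 68, 68 of 112 and 35 of 64 unlisted peaks lay there. Each region was listed or unlisted as a whole. I, II, IX and XIII were listed in every replicate in which they passed. III to VIII and X to XII were listed in none, and these include III and VII, the next by signal after II. The thresholded lists were made with a further input file whose role is not stated, and its part in this was not tested.

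The 8 lists made for the whole series followed the same pattern. Each of the 4 thresholded lists, 1 of them named conservative, held 4 peaks at tara, which overlapped I, II, IX and XIII. The 4 ranked lists held 53, 70, 60 and 36 peaks there, of which 10, 10, 8 and 13 passed. All 4 had a passing peak in I, II, III, IV, VII, IX, XII and XIII. The series lists come from the same 3 samples and are no further replicates.

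Among 13945 protein-coding genes, 30.6% had a region found in every replicate inside the gene or within 10 kb. The tara count of 6 regions was above that of 99.91% of genes. A further 5 genes had as many, and 6 genes had more, up to 8. Of 581 genes with a span of 0.67 to 1.5 times that of tara, 99.48% had fewer regions and 1 had more. Per length of window, tara had 11.0 regions per 100 kb, more than 98.81% of genes. With the peaks of the thresholded lists alone, tara had 3 regions, more than 98.20% of genes. Neighbouring genes share regions where their windows overlap, so the counts of genes are not independent.

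**Figure D4:**
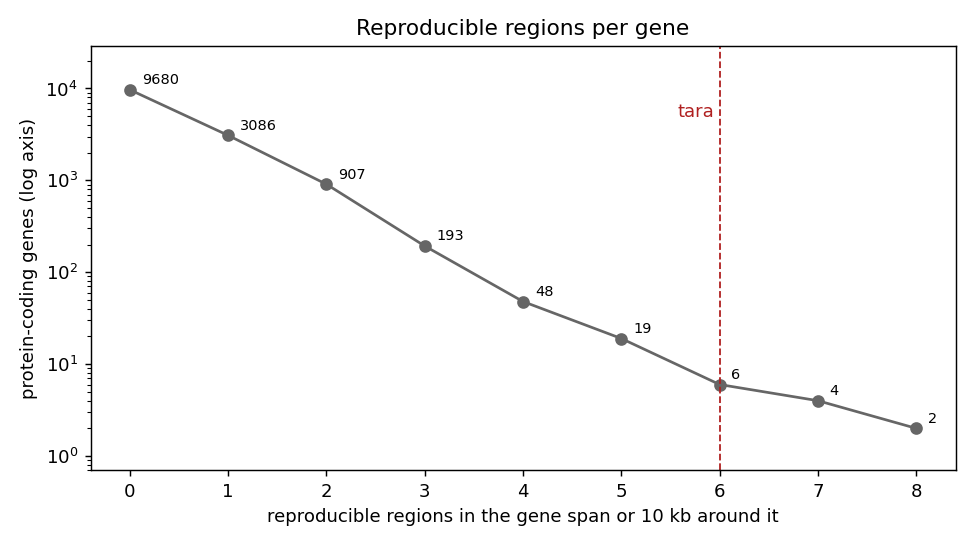
Number of protein-coding genes (vertical log axis, values printed) by the number of reproducible regions in the gene span or 10 kb around it (horizontal axis). The dashed line marks tara with 6, and 6 genes lie to its right.

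The genes with many regions differed in signal. A region with a mean percentile of at least 99 was found at 126 genes, tara with its region II among them. With II and VII, tara was among 11 genes with 2 regions of at least 95. With II, III and VII, tara had 3 regions of at least 90, as did CG34126, and no gene had more. Regions III and VII were in no thresholded list, so the standing of tara at 90 and at 95 rests on unlisted peaks. The counts at 90 and 95 were not repeated with the thresholded lists alone. CG34126 was named after its values were seen. The genes with more regions than tara were CHES-1-like and CG14434 with 8 each, and CG1677, CG4558, kirre and ush with 7 each. Among these, CHES-1-like and ush had 2 regions of at least 90 and the other 4 had none.

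The window also holds the protein-coding genes bor, asun, Mst89B and Mat89Ba, all beyond the 3′ end of tara. None of these had a region found in every replicate in its own span or within 10 kb. For lncRNA:CR45643 the same count was 4, since I to IV lie within 10 kb of it. Which gene a region acts on was not measured.

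By number of passing peaks in each replicate, the genes most like tara were chosen among the 579 of that range of span, other than tara, whose windows do not overlap its own. They were Raf, CHES-1-like, msn, Moe and sty. Raf, the kinase of the MAP kinase cascade, had 7, 11 and 10 passing peaks in replicates 1, 2 and 3, which differed from tara by 1 peak in all. CHES-1-like, a forkhead transcription factor, had 8, 12 and 11. The others were farther off, with summed differences of 9 for msn, a kinase of the JNK pathway, and 11 each for the cytoskeletal linker Moe and the receptor kinase inhibitor sty. The highest region of Raf had a mean percentile of 95.24 and that of CHES-1-like one of 95.36, both below region II. The tara locus was chosen by signal as well, so nothing is read from this difference.

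The other trithorax group genes listed had fewer regions than tara, as did 99.91% of all protein-coding genes. The gene tara was picked for its peaks, so nothing is read from this. Of 16 genes, 8 (50%) had a region found in every replicate, beside 30.6% of all protein-coding genes, and the median number of regions was 0.5, beside 0 for all genes. Trl, which encodes the GAGA factor, had 3 regions, the highest at a mean percentile of 98.86. The SWI/SNF-type remodeller subunits brm and osa had 1 and 2, with highest regions of 98.24 and 98.17, while mor, a further subunit, had 1 at 55.99. The histone methyltransferase genes trx and ash1 had 1 each, at 98.10 and 99.97. The chromodomain remodeller kis and the Mediator subunit skd had 1 each, at 71.25 and 52.52. The regions of ash1, brm, mor and skd lay outside the gene span, that of ash1 beyond its 3′ end. The other 8 (ash2, Snr1, kto, vtd, fs(1)h, Kdm5, Utx and trr) had none. Within 1 kb of a transcript start the count fell to 2 of 16, brm and Trl, beside 7.99% of all protein-coding genes.

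Of 14 genes that work with tara or in the cell cycle and the stress and fate pathways it is known from, 6 (42.9%) had a region found in every replicate, beside 30.6% of all protein-coding genes. The median number was 0 in the list and over all genes. Among the cell cycle regulators, the kinase gene Cdk1 had 2, the E2F partner Dp had 2, and E2f1 and CycE had 1 each. The highest mean percentile was 81.76 for Dp, 67.76 for Cdk1, 39.04 for E2f1 and 34.19 for CycE. The growth inhibitor brat had 1 region, at 94.18, and the JNK phosphatase gene puc had 2, the higher at 39.02. CycA, Rca1, E2f2, Rbf, stg, bsk and the homeodomain genes en and inv had none. The regions of Cdk1 and E2f1 lay outside the gene span. Within 1 kb of a transcript start the count was 4 of 14, beside 7.99% of all protein-coding genes. In the gene span alone it was 4 of 14, beside 4.85%.

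Of the Bar genes themselves, B-H1 had 1 passing peak in each replicate and no region found in all, and B-H2 had no passing peak. No region found in every replicate is the state of 9680 of the 13945 genes.

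In the sequence under the summits, 6 words of 6 letters were looked up on both strands in 200 bp. They were the TAAT-core words TAATTA and also TAATTG, the Bar-type word TAAACG, the promoter word TATCGA, the GAGA factor's word GAGAGA and the E-box word CACGTG. Of these, TAATTA is its own reverse complement, as is CACGTG, and none holds another. TAATTG was present in 3 of the 6 tara regions, I, III and VII, and in 19.9% of the 1407 regions found in every replicate on the arms. In 100 bp it was present in 1 of the 6. The window of I is centred on the summit of replicate 1. The summits of I in replicates 2 and 3, at 16221835 and 16221838, lay outside that window. GAGAGA was present in VII alone, beside 10.4% on the arms, on the minus strand with its first base 13 bp before the summit. The other words were in none of the 6. On the arms TAATTA was in 19.2% of regions, TAAACG in 8.17%, TATCGA in 10.5% and CACGTG in 2.13%. Region II, the highest, held none of the words. The GC content was 34.2% ± 9.77 over the 6 tara windows and 34.2% ± 6.18 over the 1407 regions (SD). Within tara it ran from 19.5% in I to 48.5% in II, although the summits used for these windows lie 507 bp apart.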

How the data were processed

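Peaks of B-H1-eGFP ChIP-seq from 3 biological replicates were analysed. Per the labels, coordinates are on dm6. For the aligner and the peak caller, names and versions were not given in the sources used here. The authors deposited a ranked and a thresholded peak list per replicate, with a signal per peak of unstated scale, and in the ranked lists the −log10 of the global IDR. Per the file headers and the accompanying descriptions, the replicates' lists share 1 further input file of unstated role; whether this ties the lists to each other was not tested. The read depth behind a peak is unknown, so counting error could not be stated. In the series lists, 32 columns of per-sample values carry no replicate name and were left unused.

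A peak passed when the thresholded list held it or its −log10 global IDR was 2 or more (IDR of 0.01 or less). Passing peaks that overlapped by 1 bp or more, from any replicate, were joined into 1 region. A region with a passing peak in all 3 replicates is called reproducible, with the summit of the replicate of highest percentile there. Genes were those of Ensembl release 115 and sequence was Release 6 (RefSeq). The percentile of a gene is the share of protein-coding genes with a lower count. Genes most like tara had the smallest summed difference in passing peaks over the replicates. The symbol lid was matched to Kdm5 through a table of synonyms. Merging and counting were tested on simulated data. Python 3.11.15, numpy 2.4.6 and matplotlib 3.10.9 were used.

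The locus and the gene lists were chosen with earlier results of these data known. The genes named are tara, the genes in its window, B-H1 and B-H2, the 2 lists and the 5 genes most like tara. Alternatives were other thresholds, windows and overlap rules, and leaving out each replicate.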

Additional observations from a re-analysis of the deposited data

How the results depend on the processing

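Of 44 alternative values, 29 stayed within 1.5 times the count or within 1 SD of the value, and 15 moved. With the thresholded lists only, the mean number of peaks at tara was 4.0, the regions in every replicate were 3 and the percentile of tara among genes was 98.20. In the gene span alone these were 5.67, 3 and 99.71, and the trithorax group count was 4 of 16, beside 4.85% of all genes. That count was 2 within 1 kb of a transcript start. The shares of all genes were not matched to the trithorax group list by span. The percentile of tara among genes was 99.95 with 5 kb around the gene, 99.78 with 20 kb and 98.81 per length. Among ranked peaks the percentile of region II was 99.98. With an IDR of 0.001 or less there were 4 regions, and with summits within 100 bp or an overlap of 50% of the shorter peak there were 5.

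Without 1 replicate at a time, the mean number of peaks at tara ran from 9.0 to 10.5, the regions from 6 to 8, the percentile of region II from 99.20 to 99.49, that of tara among genes from 99.87 to 99.98, the partner genes from 6 to 8 and the trithorax group genes from 8 to 9. The share of all genes with a region was then 35.6%, 33.2% and 33.8% without replicates 1, 2 and 3, beside 30.6% with all. In 100 bp windows, TAATTG was in 1 of the 6 regions in place of 3. The 100 bp window and, for the trithorax group, both the count and its alternatives were chosen after seeing the data, as was the thresholded-list value for the partner genes. For the spread of summits no alternative was run. No paired analysis was possible because the samples form 1 group. Unknown depth and the unstated scale of the signal limit what can be compared between replicates.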

Other observations

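Series ranked list 1 held a passing peak at chr3R:16241507-16241846, in the intron of tara, that overlapped no region built from the replicates' passing peaks. It was 1 of the 10 passing peaks of that list at tara.

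Of the 6 words looked up, 4 of the 7 regions that were not found in every replicate held 1 each. TATCGA was in VI and VIII, TAATTA in XII and TAATTG in XIII.

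Of the 12 genes with at least 6 reproducible regions, 6 had none of a mean percentile of 90 or more, namely CG14434, CG1677, CG4558, kirre, Cht11 and Tmf. Of all 12, 9 lie on the X chromosome, 2 on 2L and tara on 3R. The share of all protein-coding genes that lie on X was not counted, so nothing is read from this.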
